A study of Mus musculus with 2 samples.

Results

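The splicing factor genes described here are the rows of the count table whose symbol begins with Srsf, Hnrnp, Snrp or Sf3, leaving out symbols that contain -ps. The rule found 53 genes among 51868 rows, namely 11 genes of SR proteins, 20 of hnRNP proteins, 13 of snRNP proteins and 9 of the SF3 complex. They were measured by droplet-based single-cell RNA sequencing in cells dissociated from the testes of 2 wild-type C57Bl/6J Crl mice at 8 weeks of age, with 1 library per mouse and no treatment. Both animals belong to 1 condition, so the comparisons are between cell classes within the testis, and each class has 1 summed value per mouse (n = 2). Seminiferous tubules were isolated from the tissue, cut, digested with enzymes and strained before capture, and the straining was meant to keep somatic cells few. The tissue label is whole testis. All p-values rest on the spread between these 2 animals, pooled over the cell classes and partly shared across genes. The main fit treats the classes of a mouse as independent.

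Introns are removed by the spliceosome, which is built from small nuclear ribonucleoproteins (snRNPs) on each new transcript. The Sm proteins, encoded by genes such as Snrpb and Snrpd2, form a ring around the U1, U2, U4 and U5 RNAs, and the SF3A and SF3B complexes belong to the U2 snRNP, which recognises the branch site. SR proteins bind mainly exonic sequences and promote the use of nearby splice sites, whereas hnRNP proteins coat nascent RNA and often act as repressors. The testis is known as a tissue with many alternatively spliced transcripts, and transcription ceases late in spermatid development, when histones are replaced by protamines.

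The 2552 cells carried 57752829 unique molecular identifiers (UMIs, 1 per captured RNA molecule), with 27450497 in mouse 1 and 30302332 in mouse 2 and between 7114 and 154431 per cell. Cells were clustered without the 53 genes and without 127 further splicing genes, so that neither list decided the groups. The classes were early spermatocyte-like cells (53 in mouse 1, 111 in mouse 2), pachytene or later spermatocyte-like cells (309 and 219), round spermatid-like cells (188 and 258) and elongating or condensing spermatid-like cells. The last class joined a smaller cluster (87 and 110 cells) and a larger cluster (281 and 227), in both of which 13 of 13 markers of that class were raised. In the smaller cluster 7 of 12 round spermatid markers were raised as well, at a summed 4552 and 4379 CPM (counts in each 1e6 UMIs of the group, mouse 1 and then mouse 2) against 6142 and 6100 CPM in the round class, and the part of this in the comparison with round cells was not tested. The largest cluster (310 and 381 cells) stayed unnamed, since only 2 of 12 round spermatid markers were raised in it. Round spermatid was still its best-matching class, and Ssxb1 and Ssxb2 of that marker list were among the genes most raised in it. These markers summed to 3246 and 3569 CPM there, against 746 and 710 CPM in pachytene or later cells. Its cells are in none of the classes compared below, except where the cluster is counted as round spermatid-like. Spermatogonium-like, Sertoli cell-like and Leydig cell-like clusters held 7, 6 and 5 cells and entered no test. UMIs of the 13 elongating or condensing spermatid markers, which include the protamines, were also found in early spermatocyte-like cells, at a summed 7199 and 3951 CPM, while the class they mark had 162757 and 131766 CPM. A low level of any gene in any class can therefore hold RNA from other cells, and this was not tested.

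All 53 genes had UMIs and passed the filter on low counts. They received 297514 UMIs in total, and 52 are annotated as protein coding. Snrpert is annotated as a processed pseudogene and lies on another chromosome than Snrpe. Its values are uncertain because reads can fit both sequences. The same holds for Hnrnpa1, with 867 UMIs, which has many near-identical copies in the genome. Of the 53 genes, 12 overlap another gene on the same strand, where reads may be shared or dropped. Levels are given in CPM of the cell group, and because each UMI marks the 3′ end of 1 molecule, they need no scaling for transcript length. A CPM is a share, so less RNA of these genes in a cell and more RNA of other genes cannot be told apart by it.

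The promoter sequences of 4 members are shown because their RNA patterns across the cell classes, described below, contrast with each other. The CPM of Sf3b1 was lower in each later class, Srsf6 fell and then rose, and Hnrnpab and Hnrnph2 were higher in round spermatid-like than in pachytene or later cells. Each is the 250 bases before the RefSeq start on GRCm38.p6, written 5′ to 3′ on the gene's strand, at chr1:55027479-55027728 (minus strand) for Sf3b1, chr2:162931258-162931507 (plus) for Srsf6, chr11:51606882-51607131 (minus) for Hnrnpab and chrX:134600929-134601178 (plus) for Hnrnph2. Capitals mark matches, on either strand, to the CRE core TGACG, the MYB motif AACNGTT, the CCAAT box CCAAT or the GC box GGGCGG.
Sf3b1: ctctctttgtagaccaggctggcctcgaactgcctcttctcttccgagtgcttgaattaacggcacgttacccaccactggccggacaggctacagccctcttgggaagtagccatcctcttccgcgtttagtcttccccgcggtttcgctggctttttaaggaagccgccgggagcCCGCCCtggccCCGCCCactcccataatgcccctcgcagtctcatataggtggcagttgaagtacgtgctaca
Srsf6: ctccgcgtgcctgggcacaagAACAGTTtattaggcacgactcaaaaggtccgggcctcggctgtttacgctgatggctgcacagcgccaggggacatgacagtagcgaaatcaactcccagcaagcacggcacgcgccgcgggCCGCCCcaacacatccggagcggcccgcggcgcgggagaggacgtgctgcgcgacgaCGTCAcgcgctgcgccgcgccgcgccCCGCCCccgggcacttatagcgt
Hnrnpab: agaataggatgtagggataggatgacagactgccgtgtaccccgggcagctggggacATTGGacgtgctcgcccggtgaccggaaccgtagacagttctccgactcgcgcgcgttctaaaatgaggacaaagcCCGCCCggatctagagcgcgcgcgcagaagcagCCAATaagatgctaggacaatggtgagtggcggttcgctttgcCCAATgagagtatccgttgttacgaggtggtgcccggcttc
Hnrnph2: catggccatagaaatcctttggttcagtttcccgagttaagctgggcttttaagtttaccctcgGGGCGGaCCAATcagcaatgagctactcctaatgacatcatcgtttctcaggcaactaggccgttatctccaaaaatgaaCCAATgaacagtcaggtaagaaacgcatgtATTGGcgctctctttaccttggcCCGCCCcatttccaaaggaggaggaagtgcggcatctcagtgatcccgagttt

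The Srsf6 window held 1 CRE core, 1 MYB motif and 2 GC boxes, and the Sf3b1 window held 2 GC boxes and none of the others. The windows of Hnrnpab and Hnrnph2 each held 3 CCAAT boxes, beside 1 and 2 GC boxes. RefSeq windows were at hand for 46 of the 53 genes, and Hnrnpll, Hnrnpul2, Sf3b4, Sf3b5, Snrpb, Snrpd1 and Snrpert had no entry. Among the 46, a GC box was found in 33 (71.7%), against 35.4% of 27025 genes with a window. A CCAAT box was found in 22 (47.8%, against 37.5%), a CRE core in 19 (41.3%, against 19.8%) and a MYB motif in 2 (4.35%, against 4.27%). Genes with several starts were counted once when any window held the motif. The 46 members had 63 windows and the 27025 genes had 32851, and those genes were not limited to genes measured here. The matches were not tested for binding.

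Summed, the 53 genes held the largest share of UMIs in the earliest cells and the smallest in the latest. Of all UMIs of early spermatocyte-like cells, they took 1.23% in mouse 1 and 1.09% in mouse 2. Pachytene or later cells gave them 0.654% and 0.646%, and round spermatid-like cells 0.396% and 0.394%. In both mice the classes were thus ordered alike, and the gap between neighbouring classes was larger than the gap between the mice. The smaller elongating or condensing cluster had 0.250% and 0.243%, and the larger one 0.161% and 0.144%. The unnamed cluster lay between the pachytene and round classes, at 0.536% and 0.531%. With 2 mice a group, an exact permutation test of a single share cannot go below p = 0.333, so no test of the shares was made.

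The number of splicing factor UMIs per cell differed less than the share at the first step. Early spermatocyte-like cells carried on average 253 and 238 such UMIs per cell in mouse 1 and mouse 2, and pachytene or later cells 222 and 220. Round spermatid-like cells carried 90.1 and 92.2, and the larger elongating or condensing cluster 20.3 and 19.7. A share of UMIs and a number per cell therefore give different sizes for the same change, and both scales were used below.

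The share of each of the 4 families was lower at the end than at the start. SF3 genes went from 0.188% ± 0.00800 (mean ± SD, n = 2) in early spermatocyte-like cells to 0.00745% ± 0.000235 in the larger elongating or condensing cluster. SR genes went from 0.176% ± 0.00300 to 0.0158% ± 0.00126, and hnRNP genes from 0.487% ± 0.0429 to 0.0425% ± 0.00179. The snRNP genes went from 0.308% ± 0.0440 to 0.0868% ± 0.0119, of which Snrpd2 gave 2753 of 3375 UMIs in mouse 1 and 1954 of 2423 in mouse 2. The summed level of the 12 early spermatocyte markers, all of which had UMIs, moved the same way, from 5211 and 3838 CPM in early spermatocyte-like cells to 204 and 215 CPM in the joined elongating or condensing class, and its part in these shares was not tested.

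**Figure D1:**
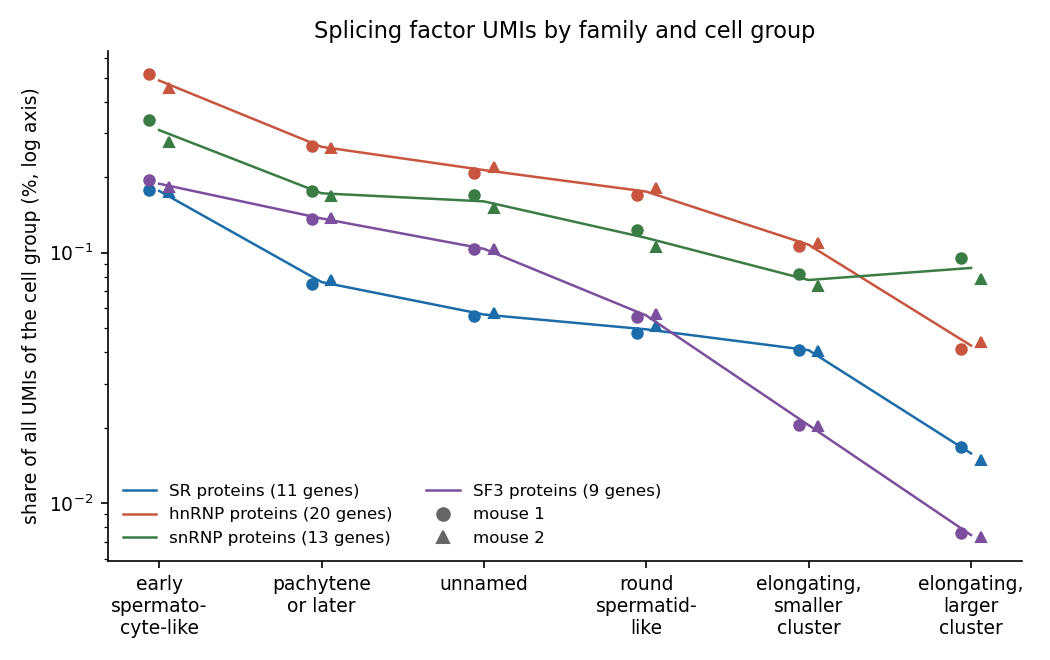
Share of all UMIs taken by each family of splicing factor genes (percent, log axis) in 6 germ cell groups, with circles for mouse 1, triangles for mouse 2 and lines joining the means. SF3 genes reached the lowest share, 0.00745% in the larger elongating or condensing cluster, whereas snRNP genes stayed at 0.0868%; the place of the unnamed cluster on the axis is not a measured order.

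Of the 53 genes, 42 had their highest CPM in early spermatocyte-like cells in both mice, compared with 28.7% of the 13518 rows that had at least 73 UMIs, the lowest total of any member. The exceptions were few and came from several families. Snrpc was highest in pachytene or later cells, Sf3b4 and Hnrnpa1 in the unnamed cluster, Hnrnpf, Hnrnpab and Srsf5 in round spermatid-like cells and Snrpd2 in the larger elongating or condensing cluster. Snrpb2, Hnrnph2, Snrpg and Snrpn peaked in different groups in the 2 mice.

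**Figure D2:**
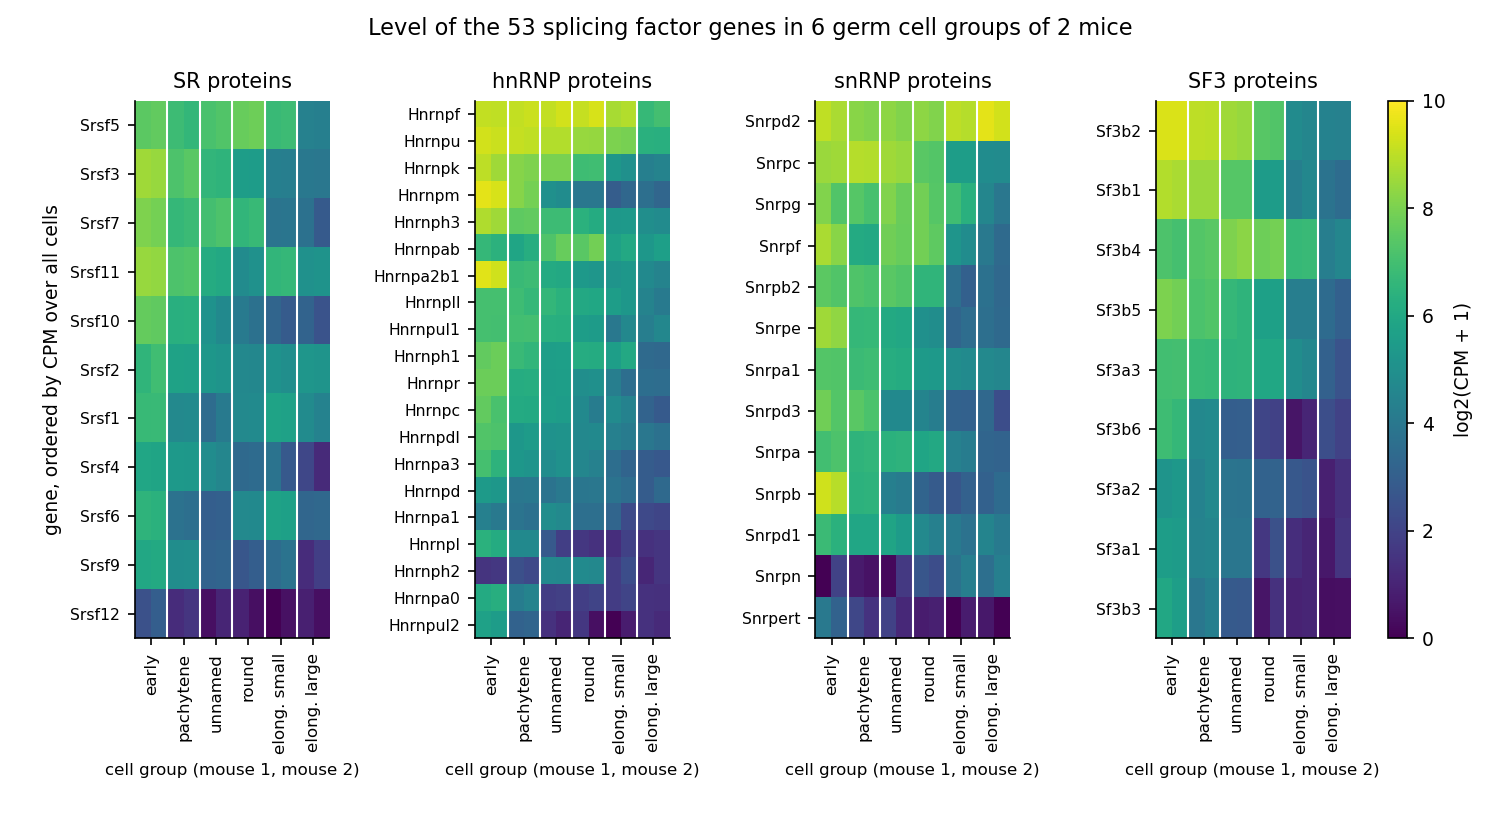
Level of each of the 53 genes as log2(CPM + 1), in 4 panels by family, with 6 germ cell groups of 2 columns each (mouse 1, then mouse 2). Most rows are brightest at the left, in early spermatocyte-like cells, and Snrpd2 is brightest in the larger elongating or condensing cluster. Snrpn is brightest in the smaller of these clusters in mouse 1 and in the larger one in mouse 2.

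Successive classes were compared by summing UMIs for each mouse in each class. The sums were fitted with the quasi-likelihood test of edgeR, scaled by TMM, with Benjamini-Hochberg adjustment over 15003 rows and a threshold of 0.05. Because the classes differ widely in RNA content and composition, the same test was also run on library totals without TMM and on UMIs per cell. Without TMM, the median log2 change of all rows moved from 0.01 to -0.24 for the step from early to pachytene or later cells, from -0.11 to -0.42 for the step to round spermatid-like cells and from -0.02 to -0.87 for the step to elongating or condensing cells. Per cell, these medians were 0.40, -0.97 and -1.36. Changes are therefore given relative to the other genes, and genes that changed in the same direction under all 3 scalings are counted separately. The share of all rows called alike under all 3 scalings was not counted. It cannot exceed the lowest of the 3 single shares, which is given below as an upper limit.

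Between early and pachytene or later spermatocyte-like cells, 32 of the 53 genes fell and 3 rose. Of all rows tested, 23.4% fell and 25.0% rose. The median log2 change was -0.78 for the 53 genes and 0.01 for all rows. Under all 3 scalings, 23 genes fell and 1 rose, where at most 14.6% and 19.2% of all rows could do so. Of the SR genes 10 of 11 fell, 6 of them under all 3 scalings, and Srsf4 did not pass. Of the hnRNP genes 13 of 20 fell. Of the snRNP genes 5 of 13 fell, and of the SF3 genes 4 of 9.

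Srsf6, an SR protein that regulates exon inclusion, had 89.8 CPM in mouse 1 and 81.8 in mouse 2 in early spermatocyte-like cells and 12.6 and 11.7 CPM in pachytene or later cells. Its log2 fold change was -2.52 (SE 0.17, adjusted p = 4.81e-10, edgeR), the largest fall of any member at this step. Srsf1, the founding member of the SR family, went from 105 and 109 CPM to 25.0 and 26.6 CPM, and it fell by 1.78 on the log2 scale, which also held under all 3 scalings. In both genes the values of the 2 mice were close.

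Snrpb, which encodes the SmB protein of the Sm ring, had 616 and 488 CPM in early spermatocyte-like cells and 85.3 and 87.2 CPM in pachytene or later cells. This was a log2 change of -2.37 (SE 0.15, adjusted p = 1.38e-10, edgeR). Snrpf, another subunit of the same ring, went from 422 and 297 CPM to 67.9 and 64.7 CPM and fell by 2.12 on the log2 scale. Snrpg and Snrpd3 of the same ring did not pass the test, with log2 changes of -0.18 and 0.02.

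Hnrnpa2b1, an hnRNP also known for its role in RNA sorting, had 740 and 619 CPM in early spermatocyte-like cells and 109 and 115 CPM in pachytene or later cells. It fell by 2.30 on the log2 scale (SE 0.13, adjusted p = 4.86e-11, edgeR), and Hnrnpul2 fell by 2.23 from a much lower level. Hnrnpm, a regulator of exon choice, went from 775 and 673 CPM to 288 and 241 CPM. All 3 fell under each scaling.

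Sf3b6, which contacts the branch site region, fell by 1.78 on the log2 scale from 119 and 99.1 CPM to 24.7 and 26.7 CPM, and Sf3b3 fell by 1.40. The levels of Sf3b1, the largest subunit, were 460 and 424 CPM in early spermatocyte-like cells and 359 and 360 CPM in pachytene or later cells. Sf3b1 did not pass the test after TMM scaling (log2 change -0.00), while on library totals it fell by 0.30 on the log2 scale. Per cell its log2 change was 0.38 and did not pass (adjusted p = 0.0504, edgeR).

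Snrpc, a protein of the U1 snRNP, was the only member that rose under all 3 scalings. It had 356 and 380 CPM in early spermatocyte-like cells and 466 and 459 CPM in pachytene or later cells, a log2 change of 0.61 (SE 0.13, adjusted p = 0.000640, edgeR). Sf3b4 rose by a log2 change of 0.55 and Hnrnph2 by 1.30 after TMM scaling, but neither passed on library totals, where the log2 changes were 0.26 and 1.03. Hnrnph2 rested on 2 and 5 UMIs in the early class.

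Between pachytene or later spermatocyte-like and round spermatid-like cells, 36 of the 53 genes fell and 10 rose, against 37.4% and 36.9% of all rows. The median log2 change was -1.13 for the 53 genes and -0.11 for all rows. Of the 10 rises, 6 held under all 3 scalings, where at most 28.5% of all rows could rise. All 36 falls held too, but both other scalings shift changes downward at this step, so falls could hardly fail. With the unnamed cluster counted as round spermatid-like, 29 genes fell and the median was -0.66, against 33.0% and -0.005 for all rows. DESeq2 gave 29 falls and 13 rises, where 28.1% of all rows fell and 38.7% rose. Of the SF3 genes, 8 of 9 fell and Sf3b4 rose. Among the hnRNP genes 14 of 20 fell, among the snRNP genes 8 of 13 and among the SR genes 6 of 11.

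The steepest fall was that of Hnrnpm, which had 14.7 CPM in mouse 1 and 14.4 in mouse 2 in round spermatid-like cells, with a log2 fold change of -3.87 (SE 0.17, adjusted p = 1.85e-14, edgeR). Hnrnpl, which binds CA-rich RNA, went from 26.0 and 25.8 CPM to 2.10 and 1.66 CPM and fell by 3.48 on the log2 scale. Both were already low in the unnamed cluster, at 31.4 and 28.5 CPM for Hnrnpm and 5.94 and 2.63 CPM for Hnrnpl.

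In the SF3B complex, Sf3b1 dropped from 359 and 360 CPM to 44.4 and 45.6 CPM, with a log2 fold change of -2.68 (SE 0.14, adjusted p = 2.70e-13, edgeR). Sf3b3 fell by 3.51 and Sf3b6 by 2.76 on the log2 scale, while Sf3b2 fell by 1.33 from the highest level of the complex, 513 and 497 CPM. Sf3b4, in contrast, had 157 and 174 CPM in the pachytene class and 218 and 238 CPM in round spermatid-like cells. Its log2 change was 0.78 after TMM scaling and 0.46 on library totals, both past the threshold, but -0.09 per cell, where it did not pass. Subunits of 1 complex therefore differed in direction on the scale of UMI shares.

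Sm genes passed the test in both directions. Snrpb continued to fall, to 8.41 and 6.30 CPM, with a log2 fold change of -3.26 (SE 0.19, adjusted p = 2.10e-12, edgeR). Snrpf rose from 67.9 and 64.7 CPM to 232 and 182 CPM, with a log2 fold change of 1.95 (SE 0.16, adjusted p = 6.10e-10, edgeR). Both mice showed these directions, which the rule that named these genes required. Snrpd3, which pairs with the SmB protein in the ring, fell by 2.67 on the log2 scale from 171 and 144 CPM to 22.0 and 18.1 CPM. Snrpg and Snrpd2 rose after TMM scaling by log2 changes of 0.70 and 0.36, but per cell their log2 changes were -0.17 and -0.51.

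Hnrnph2, the X-linked relative of Hnrnph1, had 4.49 and 3.62 CPM in pachytene or later cells and 26.4 and 24.2 CPM in round spermatid-like cells. Its log2 fold change was 2.93 (SE 0.23, adjusted p = 3.39e-10, edgeR), and it was the only member on the X chromosome. The level was equally high in the unnamed cluster, at 25.1 and 24.3 CPM. Hnrnph1 itself, which is autosomal and binds the same G-rich motifs, had 107 and 95.9 CPM and then 72.9 and 71.1 CPM, a log2 change of -0.18 that did not pass the test after TMM scaling. It was -0.50 on library totals, -1.06 per cell and -0.60 with the unnamed cluster counted as round, each past the threshold.

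Hnrnpab rose from 58.4 and 73.4 CPM to 173 and 235 CPM, with a log2 fold change of 1.96 (SE 0.18, adjusted p = 4.76e-09, edgeR). Srsf5 and Srsf6 were the SR genes that rose under all 3 scalings, by log2 changes of 1.32 and 1.39, and Srsf6 reached 25.2 and 26.0 CPM. Srsf1 had 24.8 and 26.3 CPM and did not pass the test after TMM scaling, while per cell its log2 change was -0.57. The other SR genes that passed were lower, among them Srsf3, which also acts in mRNA export, with a log2 change of -1.48, Srsf11 with -2.02 and Srsf2 with -0.80.

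Snrpn, an imprinted relative of Snrpb that is best known from the brain, had 7 and 3 UMIs in pachytene or later cells and 23 and 25 UMIs in round spermatid-like cells. These correspond to 0.669 and 0.402 CPM and to 5.38 and 4.14 CPM. The log2 fold change was 3.33 (SE 0.62, adjusted p = 7.11e-05, edgeR). Snrpn overlaps Snurf on the same strand, so its reads may be shared with that gene.

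**Figure D3:**
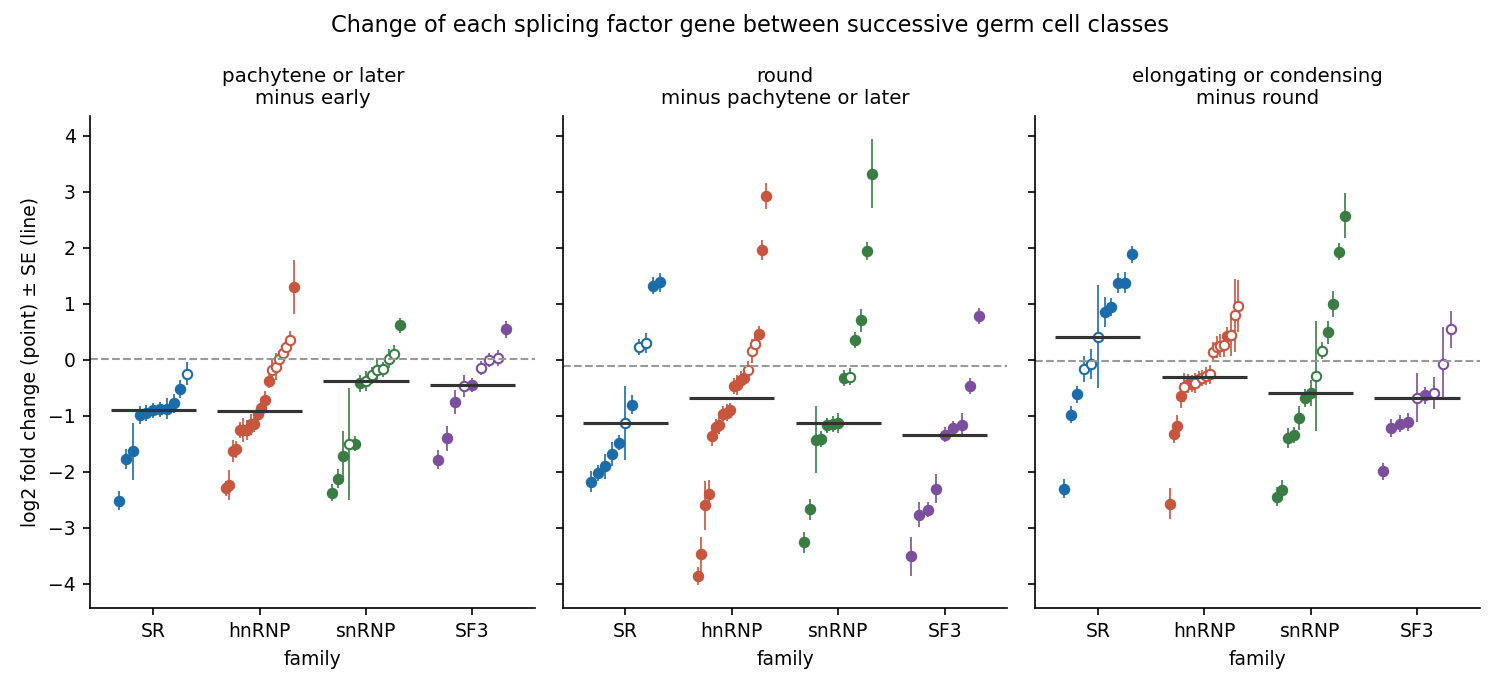
Log2 fold change (points) with its SE (lines) for each of the 53 genes in 3 steps between germ cell classes, by family, after TMM scaling; filled points passed the adjusted threshold of 0.05, black bars are family medians and the dashed line is the median of all 15003 rows. The medians of all 4 families lie below the dashed line in the first 2 steps, and the SR median lies above it, at 0.41, in the third. That SR median, like the one of the second step (-1.13), is the value of Srsf12, which did not pass in either step (SE 0.92 and 0.66). In mouse 1 and mouse 2, Srsf12 had 15 and 14 UMIs in pachytene or later cells, 4 and 2 in round cells and 3 and 2 in elongating or condensing cells.

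Between round spermatid-like and elongating or condensing spermatid-like cells, 22 of the 53 genes fell and 10 rose after TMM scaling, against 26.0% and 26.9% of all rows. The median log2 change was -0.33, and -0.02 for all rows. Only 3 of the rises, those of Srsf11, Snrpd2 and Snrpn, held under all 3 scalings, where at most 10.7% of all rows could rise. The 22 falls held too, but both other scalings shift changes downward at this step as well, so falls could hardly fail. On library totals 37 genes fell and 5 rose, where 50.1% of all rows fell and 14.5% rose. With the unnamed cluster counted as round spermatid-like, 34 genes fell and 7 rose, where 36.6% of all rows fell and 27.7% rose. The median log2 change was then -0.82, and -0.32 for all rows. SF3 genes included 5 that fell and none that rose.

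Snrpd2, a subunit of the Sm ring, had 312 and 276 CPM in round spermatid-like cells, 506 and 469 CPM in the smaller elongating or condensing cluster and 777 and 633 CPM in the larger one. The log2 fold change of the joined class was 1.93 (SE 0.15, adjusted p = 8.84e-10, edgeR), with 1.07 on library totals and 0.57 per cell. The fitted changes of this step exceed the ratios of CPM because TMM scaled the elongating or condensing sums by 0.525 and 0.528. In the larger cluster it was the member with the highest CPM in both mice, and with 2753 of 5699 and 1954 of 4461 UMIs it carried nearly as many as the other members together.

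Snrpf fell by 2.45 on the log2 scale (SE 0.17, adjusted p = 2.32e-10, edgeR), to 35.8 and 28.1 CPM in the smaller cluster and 15.5 and 10.0 CPM in the larger one. Snrpg fell by 1.04. Snrpb had 6.77 and 9.09 CPM in the joined class, close to its level in round spermatid-like cells, and its log2 change of 0.997 after TMM scaling became 0.14 on library totals and -0.35 per cell. Snrpn rose to 67 and 112 UMIs, or 11.9 and 18.9 CPM, with a log2 fold change of 2.58 (SE 0.40, adjusted p = 1.46e-05, edgeR). At these levels more Snrpn than Snrpb UMIs were counted in the joined class of both mice, the reverse of the order in early spermatocyte-like cells.

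Several SR genes were higher in the smaller elongating or condensing cluster than on either side of it. Srsf11 had 27.1 and 32.0 CPM in round spermatid-like cells, 94.2 and 101 CPM in the smaller cluster and 31.9 and 34.3 CPM in the larger one. Over the joined class its log2 fold change was 1.89 (SE 0.15, adjusted p = 1.58e-09, edgeR). Srsf1 went from 24.8 and 26.3 CPM to 55.1 and 51.9 CPM and back to 27.6 and 20.7 CPM. Srsf6 followed the same course, from 25.2 and 26.0 CPM through 53.2 and 50.8 CPM to 8.75 and 9.39 CPM. In each of the 3 genes the smaller cluster did not overlap with its neighbours. The rises of Srsf1, Srsf2 and Srsf6 passed after TMM scaling, with log2 changes of 1.38, 1.37 and 0.95, but per cell the log2 changes were 0.03, 0.01 and -0.40. With the larger cluster alone set against round spermatid-like cells, Srsf6 had a log2 change of -0.40 that did not pass.

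Srsf7 fell by 2.30 on the log2 scale (SE 0.17, adjusted p = 4.42e-10, edgeR), from 93.7 and 107 CPM to 13.5 and 13.7 CPM in the smaller cluster. Srsf3 and Srsf5 also fell, by 0.62 and 0.98. SR protein kinases and SR-related proteins were measured too. At this step 2 of 19 tested genes of that list rose and 6 fell, against 26.9% and 26.0% of all rows. Of the kinases, only the 2 largest rises of the list between spermatocytes and spermatids are given. Srpk2 had 332 and 381 CPM in round spermatid-like cells, 439 and 497 CPM in the smaller cluster and 547 and 621 CPM in the larger one. Clk4 had 51.2 and 53.4 CPM, then 132 and 136 CPM, and 71.7 and 73.8 CPM in the larger cluster.

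Hnrnph2 fell back, to 2.42 and 4.21 CPM in the smaller and 1.13 and 1.94 CPM in the larger cluster, with a log2 fold change of -2.57 (SE 0.28, adjusted p = 1.04e-07, edgeR). Hnrnpf and Hnrnpu were the members with the most UMIs over all cells (29660 and 23822). Their log2 changes were -0.42 and -0.33 after TMM and -1.29 and -1.20 on library totals. In the larger cluster Hnrnpf had 102 and 129 CPM and Hnrnpu 80.1 and 77.4 CPM. With this cluster alone set against round spermatid-like cells, the log2 changes were -1.31 and -1.04. Hnrnpk, which binds C-rich RNA, fell by 1.33, and Hnrnpab by 1.18. Hnrnpa2b1 changed direction with the scaling, with log2 changes of 0.43 after TMM and -0.43 on library totals, both past the threshold.

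Among the remaining snRNP and SF3 genes, Snrpb2 of the U2 snRNP fell by 2.33 and Snrpc of the U1 snRNP by 1.35 on the log2 scale. Sf3b2 fell by 1.99, from 166 and 155 CPM to 27.5 and 22.8 CPM in the smaller cluster, and Sf3b4 fell too, to 103 and 108 CPM in the smaller cluster and 18.6 and 23.3 CPM in the larger one. Sf3b3 and Sf3b6, with at most 4.23 CPM in either cluster, did not pass the test after TMM scaling.

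**Figure D4:**
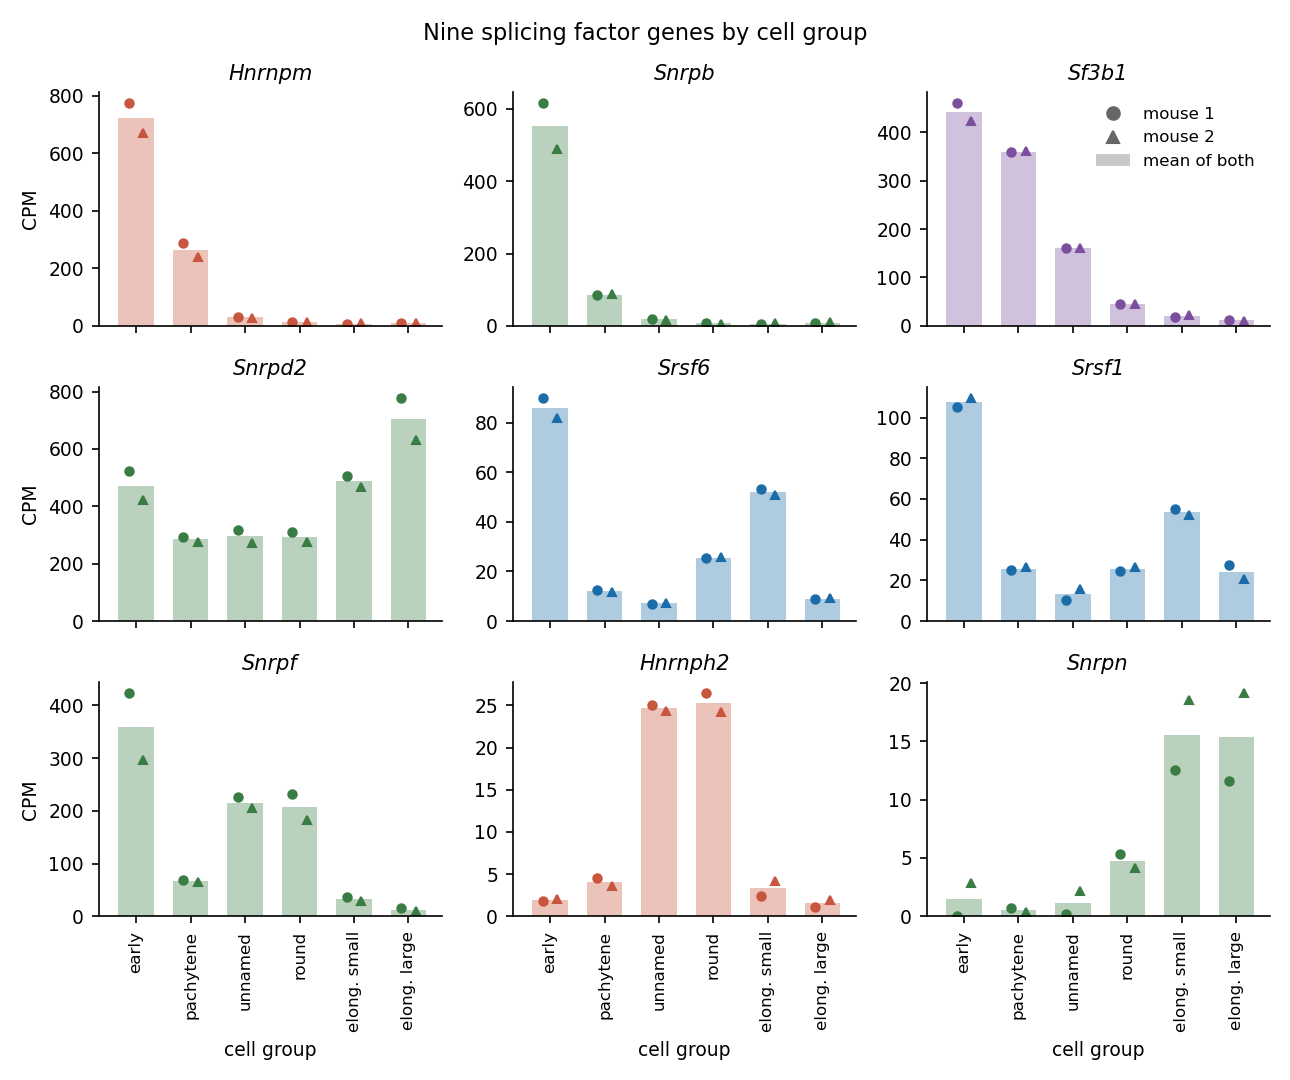
CPM of 9 members in 6 germ cell groups, with circles for mouse 1, triangles for mouse 2 and bars for the mean of both, on axes that start at 0. Hnrnpm, Snrpb and Sf3b1 have their highest bars in the early class and low bars from the round class on, Srsf6 and Srsf1 have a second maximum in the smaller elongating or condensing cluster, Snrpf and Hnrnph2 are high in round spermatid-like cells, and Snrpd2 and Snrpn are highest in elongating or condensing cells.

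With both spermatid classes set against both spermatocyte classes, 41 of the 53 genes fell and 8 rose, against 39.9% and 43.1% of all rows. The median log2 change was -1.53 and 0.07 over all rows. Under all 3 scalings Hnrnph2 and Snrpn rose, where at most 29.2% of all rows could do so. The 41 falls held too, but both other scalings shift changes downward in this comparison, so falls could hardly fail. The largest falls were those of Hnrnpm (-4.33, SE 0.12), Sf3b3 (-4.25, SE 0.26), Snrpb (-3.94, SE 0.13), Hnrnpl (-3.63, SE 0.22) and Sf3b6 (-3.38, SE 0.16), given as log2 fold changes. The rises were those of Snrpn (3.86, SE 0.43), Hnrnph2 (2.29, SE 0.27), Hnrnpab (1.28, SE 0.13), Snrpd2 (1.11, SE 0.10), Srsf6 (0.60, SE 0.12), Srsf5 (0.57, SE 0.11), Sf3b4 (0.48, SE 0.10) and Hnrnpf (0.42, SE 0.11). On library totals the log2 changes of the last 4 were negative, at -0.29, -0.32, -0.41 and -0.47. Per cell, those of Hnrnpab (-0.07) and Snrpd2 (-0.25) were negative too. Srsf1, Snrpg, Hnrnpd and Hnrnpa1 did not pass in either direction.

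The wider splicing machinery was examined with 126 further genes in 6 lists, of which 120 were tested. Between spermatids and spermatocytes, 93 of the 120 fell and 21 rose. Under all 3 scalings 7 rose, where at most 29.2% of all rows could do so, and 93 fell. The downward shift of the other scalings left falls little room to fail. Of all rows, 39.9% fell and 43.1% rose after TMM scaling, which is the background for each list below. In the 3 successive steps 68, 76 and 56 fell, against 23.4%, 37.4% and 26.0% of all rows, and 14, 25 and 17 rose, against 25.0%, 36.9% and 26.9%. Other snRNP proteins fell in 28 of 30 cases, among them Ddx23 and Lsm6, of the U5 snRNP and the LSm ring, with log2 changes of -4.60 (SE 0.31) and -4.07 (SE 0.22). Prpf4 of the U4/U6 snRNP was the only one that rose, and its log2 change was 0.62 on library totals and 0.16 per cell, where it did not pass. Of the U2 auxiliary and branch site factors 8 of 10 fell, including Ddx42 (-4.10) and U2surp (-3.76), and Puf60 and Sf1 changed direction with the scaling, with log2 changes of 0.44 and 0.41 after TMM and -0.45 and -0.48 on library totals.

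Of the Prp19 complex and catalytic step factors, 13 of 18 fell and 5 rose. Dhx38 and Cdc5l fell by 3.18 and 2.87 on the log2 scale. Bcas2, a core subunit of the Prp19 complex, had 113 and 123 CPM in pachytene or later cells and 893 and 878 CPM in round spermatid-like cells, and rose by a log2 change of 2.20 (SE 0.10) between spermatocytes and spermatids. Prpf18 had a log2 change of 0.81 after TMM but -0.08 on library totals and -0.54 per cell. Among SR protein kinases and SR-related proteins 14 of 19 fell, with Srrm1 (-4.40) and Luc7l3 (-4.33) as the largest falls, and 5 rose, with Srpk2 (2.37) and Clk4 (2.20) as the largest rises. Other splicing regulators fell in 20 of 29 cases and rose in 6, with Pcbp1 at -4.10, Tia1 at -3.86 and Mbnl2 at 3.13 (SE 0.40). Mbnl2 was low throughout, with 0.764 and 0.402 CPM in pachytene or later cells and 10.8 and 8.12 CPM in round spermatid-like cells. It had 0.846 and 0.648 CPM in the larger elongating or condensing cluster. Nono, with at most 2.42 CPM in any germ cell group of either mouse, had a log2 change of 2.82 (SE 0.72) that did not pass per cell (1.53).

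The SMN complex and other genes of snRNP assembly, which load Sm rings onto snRNAs, fell in 10 of 14 cases. Prmt5, the enzyme that methylates Sm proteins, fell by 3.89 on the log2 scale, and Snupn, an import adaptor of snRNPs, by 2.04. The genes that rose were Gemin4 and Gemin8. Gemin4 had 0.764 and 1.21 CPM in pachytene or later cells, 20.6 and 17.6 CPM in round spermatid-like cells and 41.6 and 45.2 CPM in the smaller elongating or condensing cluster, for a log2 change of 5.49 (SE 0.22). Gemin8 had 0.956 and 1.48 CPM in pachytene or later cells and 14.0 and 11.1 CPM in round spermatid-like cells. It had 3.87 and 2.45 CPM in the smaller elongating or condensing cluster and 1.41 and 1.94 CPM in the larger one. Its log2 change was 3.52 (SE 0.41). The unnamed cluster, which is outside this comparison, had 15.1 and 19.4 CPM.

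Spermatogonium-like cells had 1.42% and 1.57% of UMIs on the 53 genes, from 583 and 690 UMIs, which is above the share in early spermatocyte-like cells of the same mouse. In mouse 1 these 3 cells also had UMIs of 13 of the 14 Sertoli cell markers, at a summed 11245 CPM, against 228 CPM in mouse 2, and the part of this in their share was not tested. Over both mice, Snrpg was the member with the most UMIs in spermatogonium-like cells, at 1118 CPM (exact 95% Poisson interval 905 to 1367). Sertoli cell-like cells had 0.829% and 0.728% of UMIs on the 53 genes, with 5 cells and 1 cell. Leydig cell-like cells had 0.450% and 0.484%, with 1 cell and 4 cells. These cells were left out of the tests because classes under 100 cells were not fitted, and the interval covers counting error only.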

How the data were processed

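Strained cells from seminiferous tubules of 2 mice were profiled with 10x Genomics 3' chemistry. The authors processed the reads with bcl2fastq 2.17.1.14 and Cell Ranger 2.0.0 against a repeat-masked mm10 genome with Ensembl 89 genes, joined both libraries with downsampling of the deeper one, and deposited UMI counts per gene and cell. Barcode suffixes were taken as mouse numbers. No authors' comparison columns were used. The 2552 cells had a median of 17871 UMIs in mouse 1 and 19184 in mouse 2, and depth limits low genes.

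Cells were clustered by k-means (K = 9, 10 principal components, scikit-learn 1.9.0) without 180 splicing rows. A cluster was named when at least 3 markers exceeded 1.5 times their CPM in all cells. The 25 doublets called by scanpy 1.11.5 were kept. UMIs were summed per mouse and class and tested with edgeR 4.0.16 (quasi-likelihood, TMM, filterByExpr, Benjamini-Hochberg). The script was run on simulated counts in which few rows differed between classes. That run does not cover the wide differences in composition between the real classes. DESeq2 1.42.0 and 12 other settings served as alternatives.

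Genes named by rule were the 5 largest changes per direction and comparison, the 10 with most UMIs, 9 representatives and up to 2 per direction of each pathway list. The largest changes, of members and of list genes, were taken among genes that passed the test and changed the same way in both mice. Further members, such as Srsf4, Srsf5, Snrpd3 and Hnrnph1, were named after their values were seen. Members and lists were chosen with earlier results of these data known. Classes come from the same animals, and mouse deviations correlated at 0.032 to 0.201 between classes. Promoter windows were taken from RefSeq (GRCm38.p6).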

Additional observations from a re-analysis of the deposited data

Results flagged for a closer look

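The pseudogene Hnrnpa1l2-ps, which the symbol rule left out of the 53 genes, had 16 UMIs over all cells. It was flagged because it lies outside the rows compared.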

How the results depend on the processing

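Counts of members called depended on scaling and, at the round step, as much on the place of the unnamed cluster, and the cause was not tested. At that step 40 of the 53 calls stayed the same with this cluster counted as round, 42 per cell and 47 on library totals. How many of all rows kept their call was not counted, so these numbers are not particular to the 53 genes. Between early and pachytene or later cells, 1 gene rose on library totals, 8 per cell and 1 by DESeq2. Of all rows, 19.2%, 32.7% and 18.0% rose under these settings. In the round spermatid step 6 rose per cell and 13 by DESeq2, against 28.5% and 38.7% of all rows. In the elongating or condensing step 5 rose on totals and 3 per cell, against 14.5% and 10.7% of all rows. In the same step 37 fell on totals, 40 per cell and 34 with the unnamed cluster counted as round. Of all rows, 50.1%, 61.9% and 36.6% fell under these settings. Between spermatids and spermatocytes 4 rose on totals, 2 per cell and 4 with the larger elongating cluster alone. Of all rows, 33.2%, 29.2% and 40.6% rose under these settings. Without TMM, the percentage of called rows that were higher moved down in each comparison. It went from 51.6, 49.7, 50.9 and 51.9 to 38.6, 42.7, 22.5 and 38.2 in the pachytene, round, elongating and spermatid comparisons.

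Of the genes named by rule, log2 changes that took the other sign and passed the threshold in at least 1 of both fits were, per cell and at the first step, Hnrnpk (0.0076). At the round step they were Hnrnpa1 (-0.71), Hnrnpf (-0.42), Sf3b4 (-0.094), Snrpd2 (-0.51), Snrpg (-0.17), Srsf1 (-0.57) and Srsf7 (-0.64), and at the elongating step Hnrnpa2b1 (-0.92), Hnrnpm (-1.13), Sf3b6 (-0.80), Snrpb (-0.35) and Srsf6 (-0.40). Between spermatids and spermatocytes they were Hnrnpab (-0.068), Hnrnpf (-0.93), Sf3b4 (-0.87), Snrpd2 (-0.25), Snrpg (-1.27), Srsf1 (-1.24) and Srsf6 (-0.75). On library totals Hnrnpa2b1 (-0.43) and Hnrnpm (-0.64) reversed at the elongating step, and Hnrnpf (-0.47), Sf3b4 (-0.41), Snrpg (-0.80), Srsf1 (-0.78) and Srsf6 (-0.29) between spermatids and spermatocytes. With the larger elongating cluster alone these were Srsf6 (-0.40) at the elongating step and Hnrnpf (-0.042), Sf3b4 (-0.14), Snrpg (-0.54) and Srsf6 (-0.092) between spermatids and spermatocytes. With the unnamed cluster counted as round, Snrpb2 (0.084) reversed at the round step and Hnrnpa2b1 (-0.094) and Hnrnpm (-0.51) at the elongating step. The last 2 settings were chosen after seeing the data. Over all 53 genes, such changes numbered 1, 8, 12 and 8 per cell and 0, 0, 8 and 6 on library totals in the 4 comparisons, Srsf5 among them between spermatids and spermatocytes (-0.77 per cell, -0.32 on totals). The same changes were not counted over all rows.

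The share of early spermatocyte-like cells was 1.28% in cells thinned to 5000 UMIs. That of pachytene or later cells was 0.658% without cells over 50000 UMIs, 0.664% thinned and 0.594% without the member with the most UMIs. The unnamed cluster had 0.475% without that member. Round spermatid-like cells had 0.393% with K = 10, 0.402% thinned, 0.476% with the unnamed cluster and 0.334% without the top member. Elongating or condensing cells had 0.191% with K = 10, 0.188% without cells over 50000 UMIs, 0.180% thinned and 0.168% without the top member.

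With the mouse as replicate block, 4 genes rose and 34 fell at the first step, 10 and 37 at the round step, 10 and 24 at the elongating step, and 8 and 41 between spermatids and spermatocytes. Of all rows, 26.9%, 37.9%, 28.7% and 43.7% rose and 25.4%, 39.4%, 28.2% and 40.7% fell in these comparisons. Leaving out a mouse leaves 1 sum per class, so it gave no counts of calls. The largest changes were named only among genes that changed the same way in both mice, so their signs could not differ in the comparison that named them. Of 112 log2 changes of the genes named by rule, 112 kept their sign without mouse 1 and 108 without mouse 2. The 4 others, none of which passed the test, were Sf3b1 (0.051) and Snrpn (1.42) at the first step and Hnrnpul2 (-0.093) and Sf3b3 (0.71) at the elongating step. Depth limits Snrpn, Sf3b3 and the clusters of 5 to 7 cells.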

Other observations

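In early spermatocyte-like cells, 37 of the 46 splicing factor genes with at least 50 UMIs in each mouse were lower in mouse 2 (80.4%). By family these were 15 of 17 hnRNP, 9 of 11 snRNP and 7 of 8 SF3 genes, but only 6 of 10 SR genes. The early spermatocyte markers were lower in mouse 2 as well. They summed to 5211 CPM in 53 cells of mouse 1 and 3838 CPM in 111 cells of mouse 2. The part of this in the gene levels of this class was not tested. For the Sm core genes, a subset chosen after the values were seen, mouse 2 was lower in 7 of 7 in this class (median log2 ratio -0.43) and in 6 of 6 in round spermatid-like cells (-0.31), but in 4 of 7 in pachytene or later cells (-0.07). Of all rows, 52.2%, 48.8% and 47.4% were lower in mouse 2 in these classes. Snrpg had a ratio of mouse 2 to mouse 1 between 0.553 and 0.813 over the 6 germ cell groups. Hnrnpab had 1.24 to 1.36 outside the early class and 0.847 in it. With 1 animal on each side there was no test.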
